A study of Mus musculus with 12 samples.

Results

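Osr1, Tcf21, Wt1, Tbx18 and Pdgfra are genes of the epicardium and of the mesenchyme of the posterior heart field, and the data describe the histone mark H3K27ac and GLI1 binding around them. The members were chosen by name for their known roles, with earlier results of these data known. Everything within each gene body and 50000 bp on each side was taken. These 5 windows, of 21887 protein-coding genes, held 33 of the 94481 merged H3K27ac regions of the genome and 3 of the 2605 GLI1 sites.

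The study used cardiac progenitor cells made from mouse embryonic stem cells of the line GLI1-FTA (strain label A2Lox.cre), in which a tagged GLI1 is switched on by doxycycline. Control cells were untreated and dox cells received 500 ng/ml doxycycline for 24 hours from day 5; all cells were harvested on day 6. H3K27ac was immunoprecipitated from control and dox cells, and GLI1 was captured on streptavidin beads through its Avi tag. Each of these groups had 2 samples, which the authors pooled before calling peaks, so that there is 1 list per group, no spread between replicates and no test between conditions. All cells come from a single line, and as only the dox cells received the drug, GLI1 and doxycycline as such cannot be told apart.

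The epicardium is the outer layer of the heart, which forms from the proepicardium beside the inflow tract and releases cells that become fibroblasts and vascular smooth muscle. The posterior second heart field lies behind the heart tube and supplies the atria, the inflow tract and the tissue of the atrial septum, and Hedgehog signals from the neighbouring endoderm are known to act on it through the GLI factors. H3K27ac marks active promoters and enhancers. RNA was not measured in these files, so a mark near a gene says nothing about its transcript level.

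Promoter sequences are shown for the 3 members in the RefSeq promoter table (build GRCm38.p6), of which only Tcf21 had H3K27ac over the printed bases. Each is the 250 bases before the annotated start, 5′ to 3′ on the strand of the gene. The window of Tcf21 (chr10:22820144-22820393, minus strand) lay inside 1 dox interval and overlapped 2 control intervals. That of Pdgfra (chr5:75152001-75152250, plus strand) lay in a gap between dox intervals and inside the outer limits of the gene. That of Tbx18 (chr9:87731261-87731510, minus strand) lay far from any interval. Capitals mark matches to CCACCC, the core of the GLI consensus GACCACCCA.
Tcf21: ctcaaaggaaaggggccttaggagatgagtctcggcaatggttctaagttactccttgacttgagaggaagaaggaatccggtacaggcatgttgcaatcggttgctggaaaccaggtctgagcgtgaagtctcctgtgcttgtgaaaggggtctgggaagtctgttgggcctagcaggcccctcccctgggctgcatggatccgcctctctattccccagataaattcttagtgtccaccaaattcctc
Pdgfra: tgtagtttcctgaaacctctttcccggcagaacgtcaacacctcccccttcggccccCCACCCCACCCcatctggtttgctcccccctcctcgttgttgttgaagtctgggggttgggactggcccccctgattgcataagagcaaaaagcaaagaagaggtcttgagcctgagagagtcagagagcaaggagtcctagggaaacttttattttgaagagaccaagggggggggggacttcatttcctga
Tbx18: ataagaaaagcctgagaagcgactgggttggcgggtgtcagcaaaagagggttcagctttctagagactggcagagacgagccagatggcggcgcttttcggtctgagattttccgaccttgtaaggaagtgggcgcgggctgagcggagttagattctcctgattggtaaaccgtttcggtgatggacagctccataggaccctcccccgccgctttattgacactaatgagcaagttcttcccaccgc
The whole consensus GACCACCCA, searched on both strands, was in none of these windows and in 0.225% of the 32851 windows of the table. The core CCACCC, searched in the same way, was found only in the Pdgfra window, where 2 matches overlap from positions 58 and 63, and in 28.1% of all windows. The Tbx18 window held 15 CG dinucleotides, the Pdgfra window 4 and the Tcf21 window 5, against a median of 6.

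More regions around these genes, taken over all 5, were listed in dox cells alone than in both conditions. Of the 33 regions, 22 (66.7%, exact 95% interval 48.2 to 82.0) were dox-only, against 35.5% of all regions of the genome; 8 (24.2%) were in both lists, against 37.5%, and 3 (9.09%) were control-only, against 27.1%. The intervals cover counting error only, and neighbouring regions of a gene are not independent. By length, dox-only regions made up 9975 bp (46.4% of the merged sequence) and shared regions 10151 bp (47.2%). Osr1, Tcf21, Tbx18 and Pdgfra had more dox-only than control-only regions in their windows, as had 39.8% of all genes. Wt1 had fewer, as had 28.5%. Tcf21 alone gave 12 of the 22 dox-only regions; in the other 4 windows 10 of 17 regions (58.8%) were dox-only.

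**Figure D1:**
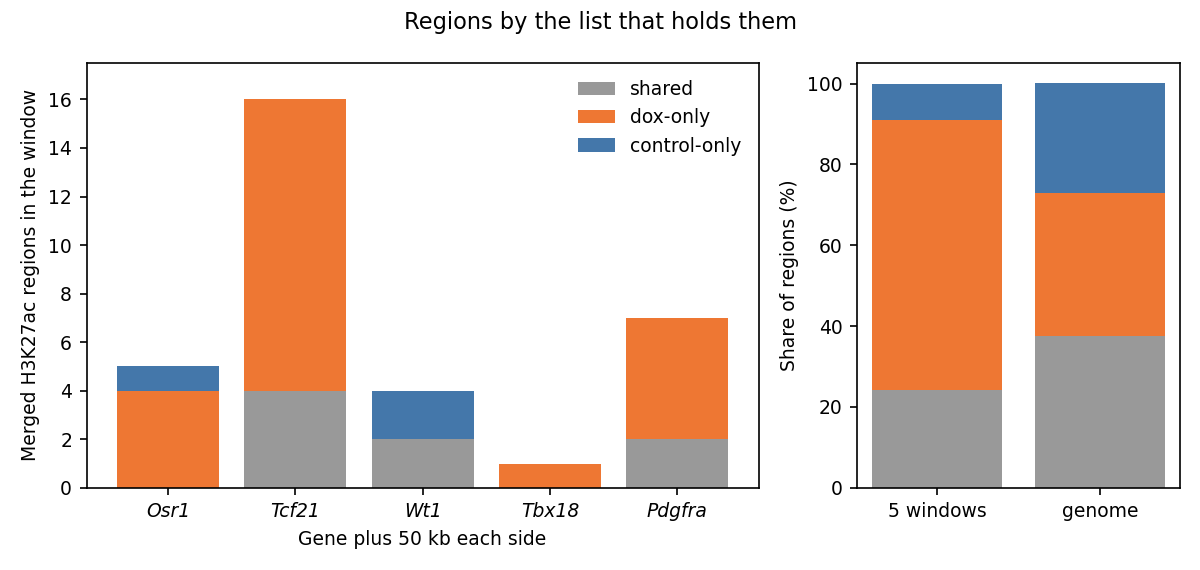
Merged H3K27ac regions in each gene's window by the list that holds them (left, number of regions), and the same classes as a share of all regions in the 5 windows and in the genome (right, percent). The Tcf21 bar is the tallest with 16 regions, the Wt1 bar has no dox-only part, and the dox-only share is 66.7% in the windows against 35.5% in the genome.

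The regions were weak. Fold enrichment is the authors' ratio of reads at a summit to a local background, and which library gave that background was not checked. It had a median of 3.67 in the 22 dox-only regions and ran from 2.48 to 5.83. The median of all dox-only regions of the genome was close, at 3.51. The number of reads over these summits, recovered from the deposited values, was between 11 and 26 with a median of 18. Brought to the depth of the control list, 20 of the 22 were at or above 9 reads, the lowest pileup called in control cells. Only 3 of the 22 had a −log10 q of at least 10. The highest value in any member window was 9.91 in control (Wt1) and 11.8 in dox cells (Tcf21), while the median gene of the genome had 15.1 in either list.

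All 5 windows lacked another protein-coding gene, which holds for 11.5% of genes. Such isolated genes had less H3K27ac, with a median of 3 regions, 806.5 acetylated bp in control and 1034.5 in dox cells, and a highest fold enrichment of 5.00 in control against 4.97 in dox cells. Among them 30.6% had more dox-only than control-only regions and 23.6% had fewer. This comparison was chosen after the windows had been seen.

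Among all genes, the members also differed in rank. By acetylated sequence in the window, Tcf21 stood at or above 57.2% of genes in control and 85.7% in dox cells, Pdgfra at 24.5% and 47.1%, and Osr1 at 20.1% and 33.1%. Wt1 stood lower in dox cells, at 46.3% and 24.2%, and Tbx18 hardly differed, at 18.4% and 18.8%. By highest fold enrichment all 5 were below the middle of the genes in both lists, between 18.4% (Tbx18 in control) and 41.3% (Tcf21 in dox cells).

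**Figure D2:**
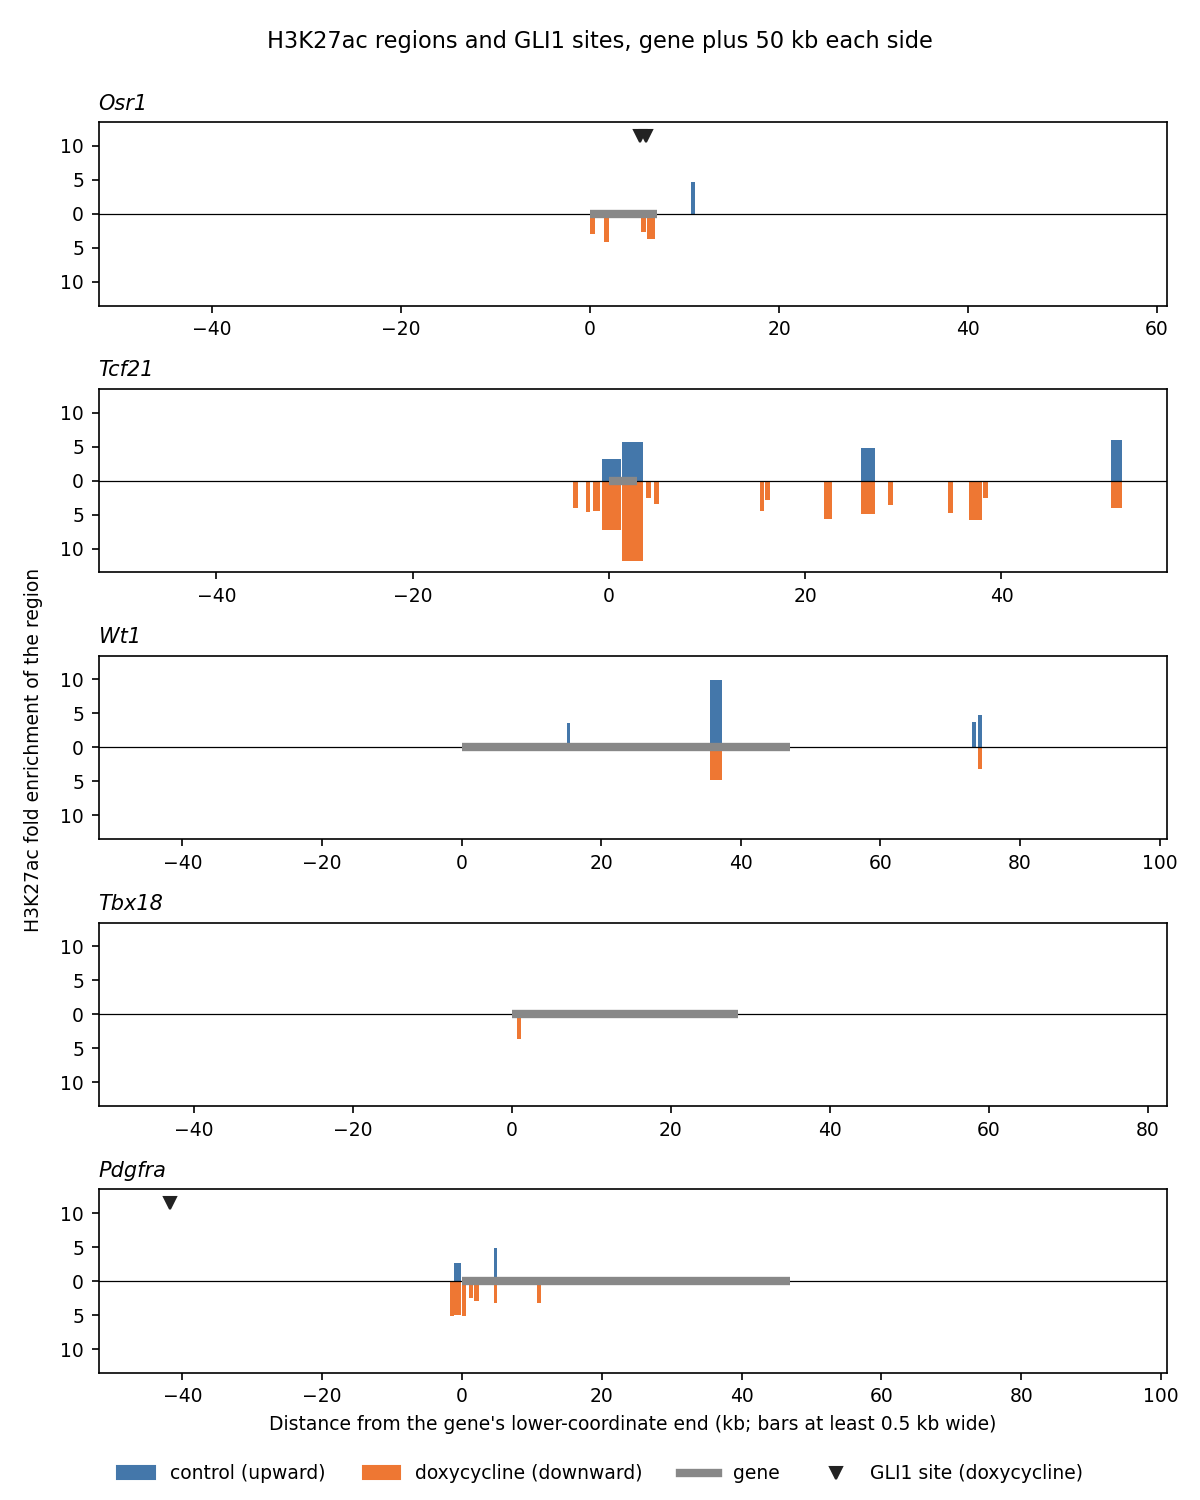
H3K27ac regions in each window at their distance from the gene's lower-coordinate end (x, kb), with the highest fold enrichment of the region upward in control and downward in dox cells (y); the grey bar is the gene and triangles are GLI1 sites of dox cells. Tcf21 has regions over the gene and along one side of it, Osr1 and Pdgfra mainly over the gene, Tbx18 a single dox bar, and Wt1 mainly control bars.

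Osr1 encodes a zinc finger factor of the odd-skipped family, which marks posterior second heart field and intermediate mesoderm. It lies on chromosome 12 (9574442 to 9581500). No region was listed inside the gene in control cells, and 4 were in dox cells. From the lower end of the gene these had fold enrichments of 3.04 (9574477 to 9574787), 4.11 (9575937 to 9576307), 2.64 (9579867 to 9580194) and 3.67 (9580421 to 9581304), each on 16 to 18 reads. The only control region of the window lay 3593 bp beyond the gene, over the long noncoding RNA gene Gm40268 (9585093 to 9585395), with a fold enrichment of 4.70 on 17 reads and no dox counterpart. Acetylated sequence in the window was 303 bp in control and 1894 bp in dox cells.

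Both GLI1 sites of the Osr1 window fell inside the gene, between acetylated regions. The stronger (9579701 to 9579801, −log10 q 22.7, the 34.7th percentile of all sites) ended 66 bp before the region at 9579867. The weaker (9580300 to 9580400, −log10 q 4.92, the 1.31st percentile) began 106 bp after that region and ended 21 bp before the region at 9580421. Thus neither site shared a base with an H3K27ac interval, although dox-only regions bordered both. No genome sequence was used here, so the bases of these sites are not shown.

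Tcf21, the gene of a basic helix-loop-helix factor of the epicardium that is needed for cardiac fibroblasts, had the most H3K27ac of the 5. It lies on chromosome 10 (22817263 to 22820143), inside the span of the long noncoding RNA gene Gm10824. The region over its annotated start (22818572 to 22820754) reached 5.74 in control against 11.8 in dox cells, on 21 and 59 reads. Its log2 ratio, dox over control and set to a median of 0 over all shared regions, was 1.17, and the ratio of reads at equal depth, centred likewise, was 1.40 (95% counting interval 0.66 to 2.19). The region over the other end of the gene (22816604 to 22818465) had 3.13 and 7.22, a log2 ratio of 1.34, or 1.53 in reads (0.52 to 2.66). Both counting intervals lay above 0, and the control values were low, at 11 reads in the second region.

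Dox-only regions surrounded Tcf21. There were 5 within a few kilobases of the gene, with fold enrichments between 2.56 and 4.65. Another 7 stretched from 12474 to 35276 bp upstream, 6 of them over the long noncoding RNA genes Gm51761 and Gm46217. The strongest of these was 5.83 (22853942 to 22855307) and the next 5.59 (22839219 to 22840001). Between and beyond them lay 2 shared regions with little difference: 4.78 in control and 4.96 in dox cells at 22842967 to 22844331 (log2 ratio 0.18), and 6.01 and 4.11 at 22868462 to 22869570 (−0.42). Their counting intervals, −0.49 to 1.22 and −1.37 to 0.58, include 0. Acetylated sequence in the window was 4337 bp in control and 12138 bp in dox cells, and the mean fold enrichment per interval was 4.61 and 4.73. These means are over different intervals, 5 in control and 17 in dox cells. No GLI1 site was in the window, and the nearest was 1144308 bp from the gene.

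**Figure D3:**
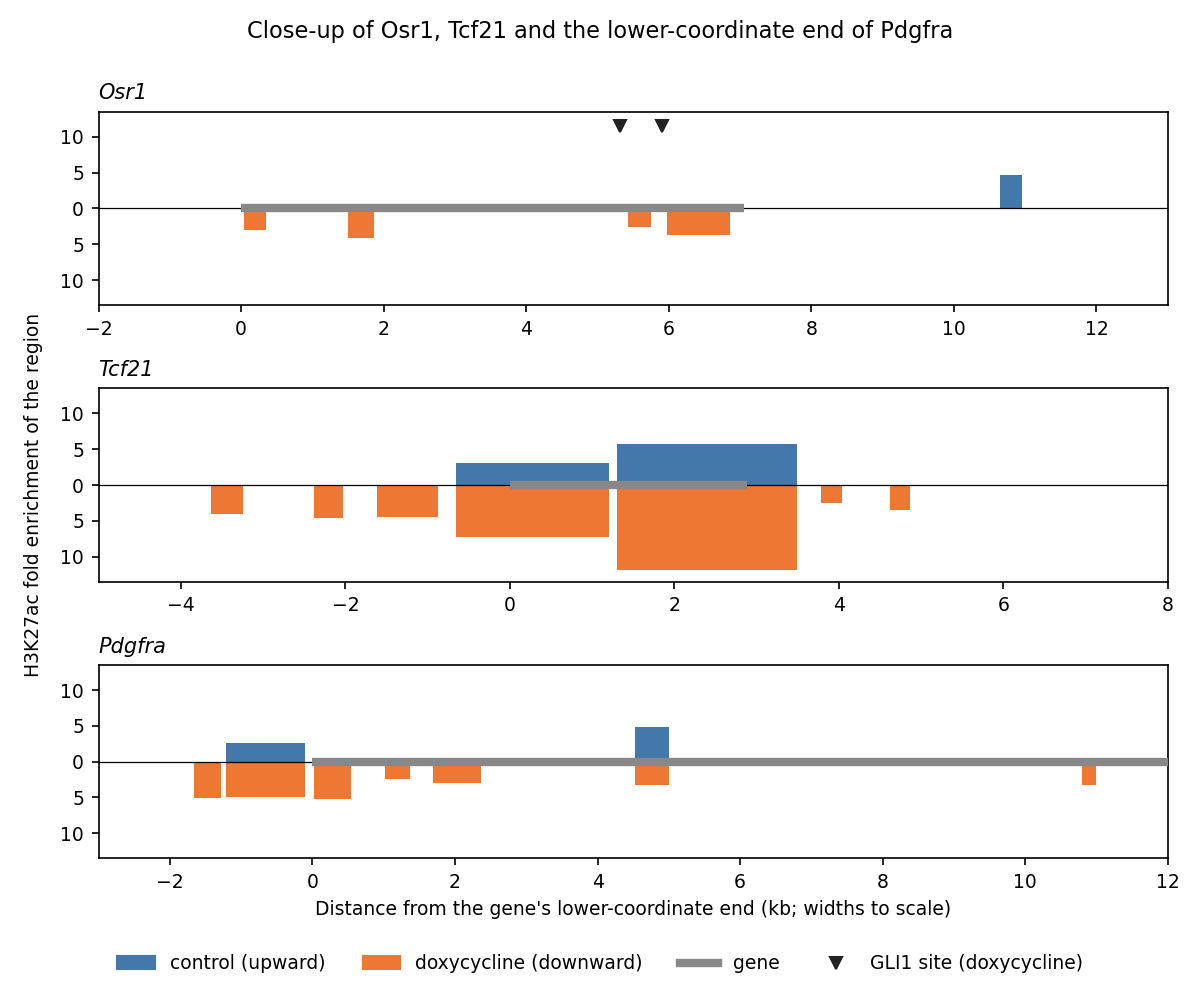
Close-up of Osr1, Tcf21 and the lower-coordinate end of Pdgfra, with distance from that end (x, kb, widths to scale) and highest fold enrichment of the region upward in control and downward in dox cells (y). Dox-only bars flank both GLI1 sites of Osr1, and the dox bar over the start of Tcf21 reaches 11.8 against 5.74 in control cells.

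Pdgfra encodes a receptor for platelet-derived growth factors that is found on cardiac mesoderm and later on fibroblasts. It lies on chromosome 5 (75151322 to 75198206). The 7 regions of its window all lay at the lower-coordinate end, the first ending 1279 bp outside the gene and the last starting 10790 bp inside it. A shared region just outside the gene (75150105 to 75151210) stood at 2.62 in control against 4.96 in dox cells, on 13 and 30 reads. Its log2 ratio was 1.06, and 1.11 in reads (0.13 to 2.18). Without centring the ratio of reads was 0.85 (−0.13 to 1.91), so that its interval then included 0. On either side lay dox-only regions of 5.07 (75149664 to 75150043) and 5.14 (75151341 to 75151869).

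Inside Pdgfra the pattern was mixed. Dox-only regions had 2.48 (75152343 to 75152695), 2.92 (75153020 to 75153680) and 3.24 (75162112 to 75162311), the first on 11 reads, the lowest pileup called in dox cells. The shared region between them (75155841 to 75156319) had 4.91 in control against 3.20 in dox cells (log2 ratio −0.48). In reads it was −0.015 (−1.02 to 1.00), with local backgrounds of 2.87 reads in control and 5.25 in dox cells. The promoter window printed above began 132 bp after one dox interval and ended 93 bp before the next. A GLI1 site (75109560 to 75109660, −log10 q 48.8) lay 41662 bp outside the gene and 40004 bp from the nearest region, in no H3K27ac interval.

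Tbx18, a T-box factor gene of the proepicardium and the inflow tract, had almost no H3K27ac. It lies on chromosome 9 (87702800 to 87731260). No control region was listed within 50000 bp, and 1 was in dox cells (87703469 to 87703725), with a fold enrichment of 3.67 on 16 reads. The gene is read from the minus strand, so that region lay near its 3′ end, and 27536 bp separate it from the printed promoter window. The nearest GLI1 site was 140672 bp from the gene.

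Wt1, which encodes a zinc finger factor of the epicardium, the kidney and the gonads, had less H3K27ac in dox than in control cells within 50000 bp, a direction that turned with 100000 bp. It lies on chromosome 2 (105126529 to 105173614). The main region, inside the gene (105162081 to 105163867), stood at 9.91 in control against 4.75 in dox cells, on 38 and 21 reads. Its log2 ratio was −0.93, and −0.95 in reads (−1.79 to −0.14), short of the limit of −1 for calling a region lower, but −1.06 and past it without centring. Another region inside the gene (105141566 to 105142070) was control-only at 3.55, as was one 25991 bp beyond it (105199605 to 105200165) at 3.75. Beside the latter, a shared region (105200571 to 105200830) had 4.70 and 3.24 (−0.40; −1.51 to 0.73 in reads).

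No region of either list lay within 1000 bp of an end of Wt1. Acetylated sequence in its window was 2998 bp in control and 907 bp in dox cells, and the other 4 windows had more in dox cells. With 100000 bp on each side it was 4337 bp in control and 5217 bp in dox cells, with 2 dox-only and 2 control-only regions. No GLI1 site lay in the window, and the nearest was 115780 bp from the gene.

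**Figure D4:**
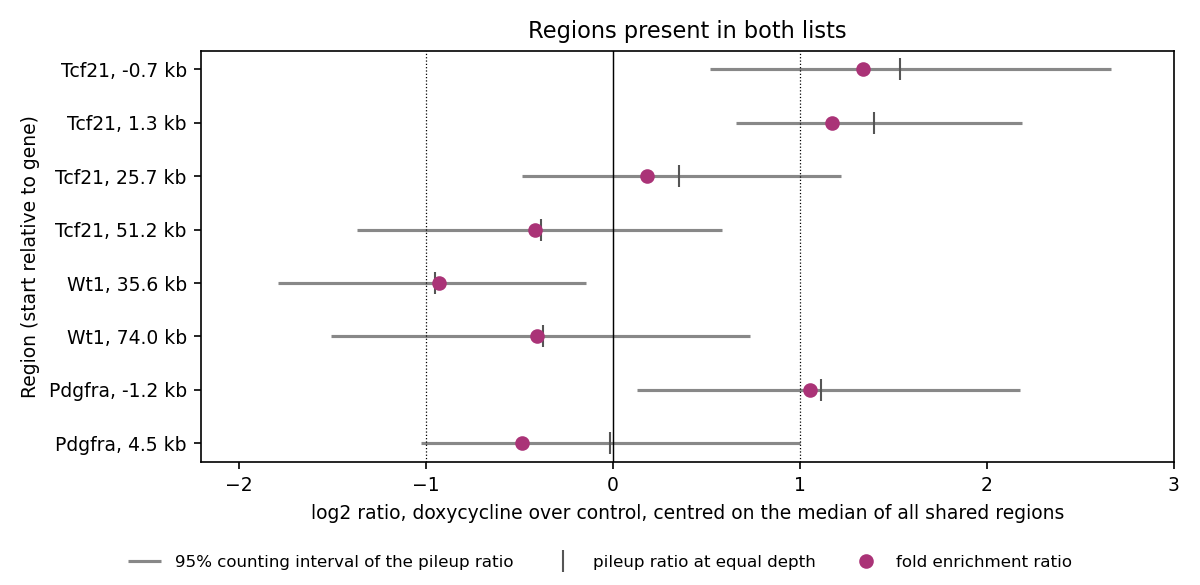
The 8 regions present in both lists, named by gene and by the distance of their start from the gene's lower-coordinate end (y), with the log2 ratio of dox over control centred on all shared regions (x); circles are fold enrichment ratios, ticks are ratios of reads at equal depth, lines are 95% counting intervals and dotted lines mark 1 and −1. The 3 regions at Tcf21 and Pdgfra ends lie above 1 with intervals above 0 (for Pdgfra only with centring), and the Wt1 region inside the gene has an interval below 0.

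Across the 8 shared regions, 3 had a log2 ratio of at least 1 (6.78% of all shared regions of the genome) and 0 had −1 or lower (8.31%). Without centring 2 had at least 1, and 1, inside Wt1, had −1 or lower. With centring, the 3 were the 2 at Tcf21 and the 1 beside Pdgfra, all within 1000 bp of a gene end. The median of the 8 was −0.11, against 0 for all shared regions by construction, with 4 of 8 above 0. Added over the 5 windows, acetylated sequence was 8394 bp in control and 18656 bp in dox cells, a ratio of 2.22 against 1.10 over the genome. Tcf21 gave the most to both sums, with 4337 and 12138 bp. With both lists held to a −log10 q of at least 10, the windows held 6 dox-only, 1 shared and 2 control-only regions. Only 3 of those 6 were dox-only as called; the other 3, and both control-only ones, were shared regions that met the threshold in 1 list alone.

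At gene ends, with regions within 1000 bp of either annotated end, the members fell into 3 kinds. Osr1 and Tbx18 had a region in dox alone, as had 2.95% of analysed genes. Tcf21 and Pdgfra had one in both lists (48.1%), with log2 ratios of 1.17 and 1.11, at or above 1 as at 3.77% of such genes; 2.04% had −1 or lower. For Pdgfra the control value came from the region outside the gene and the dox value from the one inside. Taken over 5000 bp from a gene end, a distance chosen after these values had been seen, Pdgfra had 4.91 in control against 5.14 in dox cells (0.20), while Tcf21 kept 1.17. At that distance Osr1 was no longer dox-only, since its control region of 4.70 came in beside 4.11 in dox cells (−0.063). Wt1 had none (46.7%), and no member had a region in control alone (2.20%).

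A GLI1 site lay in the window of 2 of the 5 genes, Osr1 and Pdgfra, against 13.4% of all genes. None of the 3 sites lay in an H3K27ac interval, whereas 75.0% of all sites lay in a dox interval, 25.0% in a control interval and 24.5% in neither. With 500 bp added to either side of a site, both Osr1 sites met a dox interval and the Pdgfra site met none; over all sites 91.6% met a dox interval and 8.18% neither list. The 3 regions with a log2 ratio of at least 1 held no site.

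The border of the windows mattered for Tbx18. Between 50000 and 100000 bp from the gene lay 8 further regions, of which 5 were control-only and 0 dox-only. With these included, acetylated sequence around Tbx18 was 7048 bp in control and 1212 bp in dox cells, against 0 and 257 bp in the window itself. The strongest (87617194 to 87619420) stood at 14.1 in control against 3.83 in dox cells (log2 ratio −1.75), with a counting interval in reads of −2.51 to −0.86. For Wt1 the same distance held 2 dox-only regions, the stronger at 10.1, and for Osr1 1 dox-only region at 9.94, 74405 bp from the gene. Just inside and just outside the border of the Tcf21 window lay shared regions with log2 ratios of −0.42 at 48319 bp and 1.22 at 52072 bp. None of these regions has been assigned to a gene by any measurement here.

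The genes with the most similar windows were found over 5 quantities (acetylated bp and highest fold enrichment in each list, and number of GLI1 sites), as the smallest distance among 20466 other genes. For Osr1 the nearest was Actrt2 (582 bp in control, 772 bp in dox cells, 2 sites) and for Tcf21 it was Bpgm (3009 and 11005 bp, no site). Wt1 was nearest to Nlrp14 and Rbmxl2, whose values are identical (2445 and 1010 bp). Tbx18 was nearest to Adora2a (0 and 242 bp) and Pdgfra to Mrln (780 and 2746 bp, 1 site).

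At gene ends, other genes of the same tissues had no common direction. Added over the windows of a list, members included, dox-only regions outnumbered control-only ones. They were 53 and 25 for epicardium, 110 and 66 for posterior second heart field, and 79 and 68 for mesenchyme and fibroblast genes. For the platelet-derived growth factor genes they were 36 and 30. Shared regions numbered 37, 103, 86 and 29 in the same order. Single genes weighed heavily. Foxp1 alone gave 55 and 7, Bnc1 14 and 0, and the members Tcf21 12 and 0 and Pdgfra 5 and 0. Others went the other way, among them Pdgfb with 1 and 14, Col1a1 with 3 and 8 and Snai2 with 0 and 5. These sums therefore do not show a surplus common to the genes of a list. Over the genome 35.5% of regions were dox-only and 27.1% control-only. Of 12 epicardium genes, among them Tcf21, Wt1 and Tbx18, 4 carried the mark at an end in both conditions, with a median log2 ratio of −0.17. It was in dox cells alone at 2, in control cells alone at 1 and missing at 5. Bnc1, a zinc finger factor gene of the mesothelium, had a dox-only region of 3.71, a GLI1 site and 14 dox-only but 0 control-only regions in its window. The keratin gene Krt19 had 19.6 in control and 9.84 in dox cells (−0.86), and Upk1b, a uroplakin gene, 7.14 and 4.97 (−0.39), each with 1 site. Aldh1a2, which makes retinoic acid, and Sema3d, a semaphorin gene, had no region at a gene end and 1 site each.

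Of 15 posterior second heart field genes, Osr1 included, 8 carried it in both conditions, with a median log2 ratio of 0.068. It was in dox cells alone at 3, in control cells alone at 0 and missing at 4. The forkhead factor genes Foxf1 (40.2) and Foxf2 (21.4) were the other 2 in dox alone, far above Osr1 at 3.67, with 4 and 3 GLI1 sites. Wnt2b, a Wnt ligand gene, had 15.3 in control and 6.91 in dox cells (−1.01). Meis1 (0.28, 1 site) and Foxp1 (−0.24, 4 sites) were between.

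Of 17 mesenchyme and fibroblast genes, which include Pdgfra and Tcf21, 12 carried it in both conditions, with a median log2 ratio of −0.11. It was in control cells alone at 3, in dox cells alone at 0 and missing at 2. The 2 members were the 2 with a log2 ratio of at least 1, though Pdgfra fell below 1 without centring or over 5000 bp. The collagen gene Col1a1 (22.2 in control, 6.23 in dox cells, −1.70) and the transcription factor gene Snai2 (11.6 and 4.83, −1.14) had −1 or lower. Col3a1 (0.36), Prrx2 (−0.59) and Pdgfrb (−0.47) had at least 1 site each, as had Thy1, which had no region at an end.

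Among the 6 genes of platelet-derived growth factors and their receptors, Pdgfra was the only one with a log2 ratio of at least 1. Its 1.11 at gene ends was 0.98 without centring and 0.20 over 5000 bp. The ligand gene Pdgfc had 15.0 and 21.6 (0.66) with 3 sites, the ligand gene Pdgfb 16.4 and 6.49 (−1.21), and the receptor gene Pdgfrb 31.3 and 20.6 with 2 sites.

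As a check of the labelled cell type, 8 of 13 cardiac genes had a control region at a gene end, among them Isl1 (20.2 in control, 21.0 in dox cells), Tbx20 (17.3 and 12.6), Hand2 (24.5 and 10.8, log2 ratio −1.05) and Tnnt2 (10.4 and 3.74, −1.35). Nkx2-5, Gata4, Tbx5, Mef2c and Myh6 had none there. Of all analysed genes, 48.1% had a region at an end in both lists and 2.20% in control alone. In the lists above, 15 of 17 mesenchyme and fibroblast and 4 of 6 platelet-derived growth factor genes had a control region at an end. So had 8 of 15 posterior second heart field and 5 of 12 epicardium genes. The count therefore does not set the cardiac genes apart. Of other types, 0 of 6 endoderm, 4 of 8 endothelial, 2 of 5 pluripotency, 1 of 4 neural and 2 of 6 paraxial and intermediate mesoderm genes had a control region at an end; in dox cells the numbers were 2, 6, 2, 1 and 2, and 5 for the cardiac genes. Values at markers of other types also differed between the conditions. The endothelial gene Sox18 had 3.56 in control and 33.1 in dox cells, and the paraxial mesoderm gene Tbx6 5.12 and 19.4. The endoderm gene Foxa2 had 34.0 in dox cells alone. Sox18 and Foxa2 had 2 GLI1 sites each in the window, and Tbx6 had 0. Other genes of these lists differed. Pecam1 had 11.7 and 11.2, while the median log2 ratio of the 4 endothelial genes with both values was 0.64. Meox1 had 3.79 in control cells alone and Osr1 3.67 in dox cells alone. Pax3, Pax2, Lhx1 and Foxa1 had no region at an end. Added over the windows of a list, 29 regions were dox-only and 69 control-only for the cardiac genes, 55 and 12 for the endothelial and 38 and 2 for the endoderm genes. In bulk cells, fewer cells with a mark and less of the mark per cell cannot be told apart, and the part of changed cell types in the values above was not tested.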

How the data were processed

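H3K27ac and GLI1 profiles came from 3 pooled lists that stand for 6 of the 12 samples; lists for the other groups were not analysed here. The submitters' processing notes list MACS2 2.1.1, Bowtie2 2.3.2 and SAMtools 1.5 and build mm10, without the role of each tool. The authors deposited for each H3K27ac summit a fold enrichment (a ratio) and a −log10 p and −log10 q; the GLI1 list holds a deposited −log10 q per window of 101 bp, per its name replicated and with a Gli motif. Library depths are unknown.

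Summits of an interval were collapsed to the highest fold enrichment, and intervals of both lists sharing at least 1 bp were merged into regions with Python 3.11.15, pandas 2.3.3 and SciPy 1.17.1. Log2 ratios of shared regions were centred on their median of −0.13, and 1 in size was the limit for higher or lower. They are ratios of lists with no common scale. Whole-number pileups returning the deposited values within 0.01 were found for 99.96% of control and 99.92% of dox summits. The uniform backgrounds, 2.83 and 3.63 reads, gave a depth ratio of 1.28, which assumes equal fragment lengths; exact binomial intervals of reads cover counting error only, and PCR copies are not independent. The pileup ratios were centred in the same way. The steps were tested on simulated data.

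Genes came from the RefSeq table of GRCm38.p6, whose chromosomes carry the mm10 coordinates; it gives outer ends but no exons, so exons and introns were not told apart. Running peak numbers skip in 694 stretches, read as removed peaks; none touched a member window, and the 1420 genes with an end in one were left out of counts over genes, leaving 20467. No genome sequence was at hand for the sites. Genes named were the 5 members, and genes of the epicardium, posterior heart field, mesenchyme and PDGF lists with a GLI1 site in the window or a log2 ratio of at least 1 in size at a gene end; markers named in the cell type check were picked after their values were seen. The members and the lists were chosen with earlier results of these data known. Alternatives covered overlap, peak threshold, window, depth, centring and the value per region.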

Additional observations from a re-analysis of the deposited data

How the results depend on the processing

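With 1 pooled list per group, no replicate could be left out. No paired analysis was possible because the lists pool the replicates and no test was run. The 22 dox-only regions became 18 with 20000 bp and 27 with 100000 bp on each side, 23 with a stricter overlap, and 20 with the dox list brought to the control depth, where 34.2% of all regions were dox-only. With a −log10 q of at least 10 in both lists there were 6 dox-only (26.2% over the genome) and 1 shared region, 1 of them with a log2 ratio of at least 1, and 3703 and 9177 acetylated bp in control and dox cells. The 8 shared regions became 5 with 20000 bp and 17 with 100000 bp, where control-only regions were 8 and acetylated bp 21034 in control and 31345 in dox cells. The median log2 ratio of shared regions, −0.11, has no stable sign: it was 1.13 at the stricter threshold, where it rests on 1 region, 1.06 with 20000 bp, −0.24 with 100000 bp, −0.24 without centring and 0.17 in reads at equal depth. Without centring the region beside Pdgfra had 0.92 and its gene ends 0.98, below the limit of 1, while the region inside Wt1 had −1.06, past the limit. Gene ends taken over 5000 bp and without centring were added after seeing the data. GLI1 sites in a dox interval numbered 0, and 2 with sites 500 bp wider on either side. Acetylated bp with 100000 bp turned direction at Wt1 (4337 in control, 5217 in dox cells) and Tbx18 (7048, 1212). Over all results, 183 of 235 values under an alternative stayed within the limits set for the same result, 49 moved and 3 changed sign. The 11 to 26 reads behind a dox-only summit limit what can be said of any single region.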
